A study of Mus musculus with 8 samples.

Results

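The genes described here encode the potassium, sodium and calcium channels of the cell membrane and their auxiliary subunits. They were chosen by name alone: every non-control probe whose gene name on the array begins with Kcn followed by a further letter, with Cacna, Cacnb or Cacng, or is Scn followed by a number and the letter a or b. This took 193 of the 41174 probes and 121 genes, of which 83 belonged to potassium channels, 12 to voltage-gated sodium channels and 25 to voltage-gated calcium channels. The remaining gene, Kcnq1ot1, carries a channel's name but is a long noncoding RNA.

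Voltage-gated channels are built from a large pore-forming subunit that opens when the membrane is depolarised, together with smaller auxiliary subunits that set how much of the pore reaches the membrane and how it gates. Sodium and calcium entry through such pores starts the electrical signals of nerve and muscle, and potassium exit ends them. Inward rectifier and two-pore-domain potassium channels need no depolarisation and help hold the resting potential of many excitable and non-excitable cells.

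R1 mouse embryonic stem cells, an established line of pluripotent cells, were grown on gelatin in medium with serum replacement. In the LIF group (4 samples) leukaemia inhibitory factor, the cytokine that keeps mouse embryonic stem cells undifferentiated, was present and feeder cells were not. The butyrate group (4 samples) was kept for 15 passages in 0.2 mM sodium butyrate, an inhibitor of histone deacetylases, with LIF left out. The comparison therefore joins 2 changes, the loss of LIF and the addition of butyrate, and all samples come from 1 line. Samples 1 to 4 of the groups were hybridised in pairs to 4 Agilent arrays with 2 colours, butyrate always in Cy5 and LIF always in Cy3, and this leaves dye and treatment as effects that cannot be told apart. Positive log2 ratios mean a higher signal in butyrate, and every direction is relative to the array-wide centre set by a loess fit. In a bulk sample, fewer cells of a type and less RNA per cell cannot be told apart.

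Channel probes were dim. Per array, 73 to 81 of the 193 channel probes (37.8 to 42.0%) were well above background with LIF RNA and 80 to 86 (41.5 to 44.6%) with butyrate RNA, against 57.3 to 60.7% and 62.1 to 63.3% of all probes. Over all probes the median signal per array was 62.8 to 66.0 for LIF and 110 to 111 for butyrate. Of the 121 genes, 48 had no probe well above background on any array in either channel. In 59 genes a probe passed on at least 3 arrays in both groups. Kcnip2 did so in LIF alone (4 arrays, against 2 in butyrate), and 5 genes did so in butyrate alone: Kcna1, Kcne1l, Kcne3, Kcnf1 and Kcng3. A further 8 genes were above background on fewer arrays, namely Cacnb2, Kcna5, Kcnc2, Kcnd1, Kcnh1, Kcnj16, Scn10a and Scn1a. The 56 genes of these last kinds were too dim to test, and nothing is said of their direction.

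A marker check bears on what the samples held. Of 7 tested markers of pluripotent stem cells, 6 were lower in butyrate and 1 higher: Pou5f1 fell by 1.57 ± 0.22 on the log2 scale (SD, n = 4 arrays) and Nanog was higher by 0.23 ± 0.05. All 10 trophoblast markers tested and all 6 smooth muscle markers tested were higher in butyrate, as were 7 of 9 fibroblast markers. Their summed intensity was 30041 to 34402 in LIF and 129408 to 132890 in butyrate for trophoblast, 25370 to 26338 and 68120 to 74632 for smooth muscle, and 2690 to 3020 and 12894 to 13553 for fibroblasts. Glial markers gave 1 higher and 1 lower of 5 tested, with Gfap and Aqp4 never above background, and endothelial markers 1 higher and 1 lower of 4, with Tie1 and Emcn never above background. With arrays centred on the median, 1 pluripotency marker was higher and 4 lower, and the trophoblast, smooth muscle and fibroblast lists kept 10, 6 and 7 higher. The part of these markers in the channel results was not tested.

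Among the 65 channel genes that were bright enough to test, a few pore-forming and auxiliary genes were clearly higher in butyrate, and a larger number were modestly lower. Past an adjusted p of 0.05 (limma, Benjamini-Hochberg over all 17190 genes tested) were 46 of the 65, or 70.8%, against 75% of all genes tested. Of these, 18 were higher, where 41.7% of all genes were higher, and 28 were lower, where 33.3% of all genes were lower. At least 2-fold higher were 5 genes, among them Cacna1s, Scn3b, Kcnk6 and Kcnk1, where 4.97% of all genes were. None was at least 2-fold lower, where 1.97% of all genes were, although 28 passed in that direction. This count depended on the processing: 12 channel genes were at least 2-fold lower and 8 at least 2-fold higher with the scanner software's log ratio, and likewise with the authors' value table. With arrays centred on the median without loess, which moved the median of all genes from 0.03 to 0.41, the share of higher genes among those that passed rose from 39.1% to 72.7% in channel genes and from 55.7% to 92.4% in all genes. The intensities of the LIF and butyrate samples did not overlap in 37 of the 65 genes, against 67.9% of all genes.

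With the offset of 50 and loess, differences were mostly small. The median log2 ratio of the 65 genes was -0.04, beside 0.03 for all genes tested, and the median absolute log2 ratio was 0.16, beside 0.25. Of the 46 genes that passed, 35 changed by less than 1.5-fold. In each of the 46 the sign was shared by the 4 arrays. The 19 genes that did not pass lay between -0.11 and 0.09. Spread between arrays was like that of other genes, with a median SD of 0.07 for channel genes and 0.08 for all genes. The offset of 50 added to each background-corrected intensity pulls the ratios of dim probes towards 0, and the median log2 intensity of the tested channel genes was 6.91, beside 8.91 for all genes tested. In the authors' value table, where that offset was not added, ratios of several dim genes were larger in size in both directions. Lower were Kcnip2 (-2.37), Kcnk7 (-1.73), Kcnab2 (-1.59), Kcnip3 (-1.45), Kcnj4 (-1.43), Kcnk12 (-1.31), Kcnh8 (-1.25), Scn8a (-1.197), Kcnh2 (-1.17) and Cacng6 (-1.16). Higher were Kcnf1 (1.80), Kcne1l (1.57), Kcna1 (1.36) and Kcnmb4 (1.32). Kcnf1 and Kcne1l were each above background on 1 LIF array, Kcna1 on 2 LIF arrays and Kcnip2 on 2 butyrate arrays. The ratios of these 4 genes therefore rest in part on background signal. With the offset and loess, Kcnf1 did not pass (0.09 ± 0.11, adjusted p = 0.121). When all genes tested were divided into 3 equal groups by brightness, 53 of the 65 channel genes fell in the dimmest group, where 67.9% of them passed, beside 60.5% of all genes in it. In the middle group 9 of 10 channel genes passed (90%, beside 82.7%), and in the brightest 1 of 2 (50%, beside 81.8%).

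**Figure D1:**
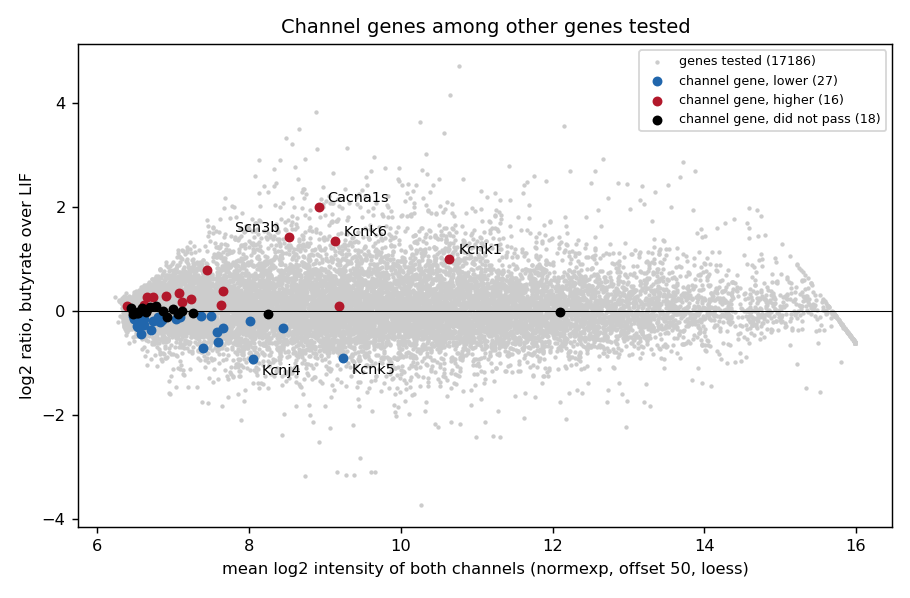
Each grey point is 1 of 17186 genes tested, placed by its mean log2 intensity over both channels (horizontal) and its mean log2 ratio of butyrate over LIF on 4 arrays (vertical), with 61 of the 65 tested channel genes in red (16 higher), blue (27 lower) and black (18 that did not pass). Most channel genes lie at the dim left edge near a ratio of 0, and Cacna1s, Scn3b, Kcnk6 and Kcnk1 stand above it.

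Array 2 gave the smallest absolute ratio of the 4 arrays in 33 of the 46 channel genes that passed (71.7%), and in 48.4% of all genes that passed. It appears below as the value nearest to 0 in many of the genes described.

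**Figure D2:**
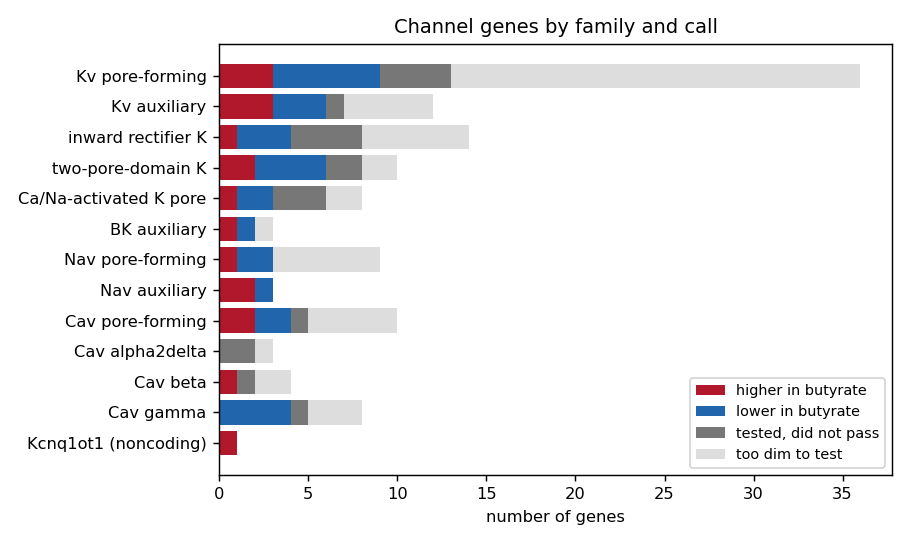
Bars count the 121 channel genes (horizontal axis) in 13 families: red for higher in butyrate, blue for lower, dark grey for tested but not past an adjusted p of 0.05, light grey for too dim to test. The voltage-gated potassium pores form the largest family, with 36 genes of which 13 were tested. In the calcium channel gamma family 4 of the 5 tested genes were lower, where 33.3% of all genes were lower. With median centring Cacng2, Cacng6 and Cacng8 no longer passed and Cacng7 turned sign.

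Cacna1s, a pore-forming subunit of voltage-gated calcium channels, was strongly higher in butyrate. It encodes the pore and voltage sensor of the calcium channel of skeletal muscle and lies on chromosome 1.

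The Cacna1s probe had normalized intensities (offset included) of 222, 281, 223 and 250 in LIF samples 1 to 4 and of 970, 930, 963 and 1011 in butyrate samples 1 to 4. All butyrate samples were well above all LIF samples. The log2 ratio was 2.00 ± 0.19 (SD, n = 4 arrays), a 3.99-fold difference (adjusted p = 1.24e-07).

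Cacna1s has another tested probe, which was well above background on 0 of 4 arrays in LIF and on 4 of 4 in butyrate. It therefore gives a bound, equal to its measured ratio, and on it Cacna1s was at least 1.39-fold higher in butyrate (adjusted p = 0.000436 over probes). Mean intensities were 90.7 in LIF and 126 in butyrate. The probe entered the test through butyrate alone, so its p-value is no separate support for the rise. Both probes are listed for the same transcript, and the exons they read are not given in these sources. The other probe was dim, at a mean log2 intensity of 6.74, beside 8.92 for the brighter one.

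Sodium channel pores were mostly dim. Scn8a, a channel of nerve cells, had intensities of 108, 95.1, 104 and 121 in LIF and 86.0, 88.5, 89.6 and 92.1 in butyrate. The groups did not overlap, and Scn8a was lower by a log2 ratio of -0.26 ± 0.13 (adjusted p = 0.00194). Scn4a, the sodium channel of skeletal muscle, was at 164 to 176 in LIF and 150 to 169 in butyrate, overlapping. Its ratio of -0.09 ± 0.04 barely passed (adjusted p = 0.0493), and its sign turned to 0.24 when arrays were centred on the median without loess. Scn1a, Scn3a, Scn7a, Scn9a, Scn10a and Scn11a, 6 further pores, were too dim to test.

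Scn3b encodes an auxiliary beta subunit of sodium channels, and it was clearly higher in butyrate on its brightest probe. Its intensities were 202, 255, 211 and 235 in LIF and 578, 591, 626 and 625 in butyrate. No LIF sample reached any butyrate sample. The log2 ratio was 1.43 ± 0.16, or 2.69-fold (adjusted p = 3.37e-07). A dimmer probe, listed under another sequence record of Scn3b, was above background in butyrate alone (0 and 4 of 4 arrays). Whether the probes read different transcripts is not given in these sources. The dimmer probe did not pass (adjusted p = 0.512 over probes), with mean intensities of 89.0 in LIF and 91.0 in butyrate, and sets only a bound of at least 1.02-fold. A further Scn3b probe, above background on 0 LIF arrays and 1 butyrate array, was too dim to test. The rise of Scn3b therefore rests on 1 probe. Scn2b, another auxiliary subunit of these pores, at 134 to 142 in LIF and 118 to 127 in butyrate, was lower at -0.15 ± 0.04 (adjusted p = 0.00518), a sign that turned to 0.07 with median centring.

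Because Cacna1s is a muscle channel, the muscle markers are given beside it. Of 12 markers of cardiac and skeletal muscle 11 were tested, 7 were higher and 0 lower in butyrate (8 and 3 with the scanner software's log ratio or the authors' value table, 8 and 0 with median centring), and all were above background on some array. Their summed intensity was 5618 to 5994 in LIF and 12815 to 14125 in butyrate. Actc1 (cardiac actin) was higher by 1.97 ± 0.12, Acta1 (skeletal actin) by 1.49 ± 0.16, Myh7 by 0.94 ± 0.07 and Nkx2-5 by 0.59 ± 0.18 on the log2 scale. Myog gave 0.03 ± 0.02 and Ckm -0.09 ± 0.09, and neither passed (adjusted p = 0.507 and 0.0898). Neuronal markers, set beside Scn3b and Scn8a, gave 3 higher and 5 lower of 11 tested (5 and 3 with median centring), with Dcx never above background and summed intensities of 17185 to 25357 in LIF and 20170 to 25280 in butyrate. Whether muscle or nerve cells were present, or account for any channel ratio, was not tested.

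Of the 10 pore-forming calcium channel genes 5 were tested, and 2 were higher and 2 lower. Next to Cacna1s, the other higher one was Cacna1g, a low-threshold calcium channel, with 104, 119, 109 and 105 in LIF and 147, 129, 126 and 130 in butyrate. The groups did not overlap, and the ratio was 0.29 ± 0.16 (adjusted p = 0.00277). Cacna1a, the channel that triggers transmitter release at many synapses, overlapped between groups (113 to 128 in LIF, 101 to 114 in butyrate) at -0.16 ± 0.11 (adjusted p = 0.0141). It did not pass with median centring (-0.02, adjusted p = 0.834). Cacna1h, another low-threshold channel, was lower at -0.14 ± 0.08 (adjusted p = 0.0137) and likewise did not pass with median centring (-0.13, adjusted p = 0.204). Cacna1b did not pass on its brightest probe (0.04 ± 0.02) and was higher on its other (0.14 ± 0.08, adjusted p = 0.0148 over probes). The untested pores were Cacna1c, Cacna1d, Cacna1e, Cacna1f and Cacna1i.

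Auxiliary calcium channel subunits lay close to 0 or were slightly lower. Cacna2d2, an alpha2delta subunit that raises the number of pores at the membrane, had the brightest probe of all channel genes, at 4504, 4550, 4282 and 4290 in LIF and 4294, 4372, 4379 and 4316 in butyrate. The groups overlapped, and the ratio of -0.02 ± 0.05 did not pass (adjusted p = 0.603). It moved to 0.55 with median centring (adjusted p = 0.011), and a much dimmer Cacna2d2 probe gave -0.55 ± 0.13 (adjusted p = 2.74e-05 over probes). Cacna2d1 did not pass either (-0.05 ± 0.13). Cacnb3, a beta subunit that helps bring the pore to the membrane, was at 548 to 602 in LIF and 578 to 622 in butyrate, overlapping. Its 0.10 ± 0.07 barely passed (adjusted p = 0.0482), and its sign turned to -0.01 in the scanner software's log ratio and to -0.02 in the authors' value table. Cacnb1 did not pass (-0.05 ± 0.09), but passed as lower in the scanner software's log ratio (-0.22, adjusted p = 0.0295) and as higher with median centring (0.44, adjusted p = 0.00557).

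The gamma subunits, a family that includes partners of AMPA-type glutamate receptors, had 5 tested members of 8, of which 4 were lower and none higher under loess. Cacng2 was at 123, 115, 126 and 117 in LIF and 106, 108, 109 and 100 in butyrate, without overlap, a ratio of -0.18 ± 0.06 (adjusted p = 0.00255). Cacng6 (-0.19 ± 0.09) and Cacng8 (-0.19 ± 0.08) also passed without overlap (adjusted p = 0.00373 and 0.00361). Cacng7 passed narrowly with overlapping groups (-0.10 ± 0.07, adjusted p = 0.0476). Cacng6, Cacng7 and Cacng8 are neighbours on chromosome 7, where the median ratio of all 1178 genes tested was -0.06. With median centring Cacng2, Cacng6 and Cacng8 no longer passed and the sign of Cacng7 turned to 0.26. Cacng4 did not pass (-0.01 ± 0.07), and Cacng1, Cacng3 and Cacng5 were too dim.

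**Figure D3:**
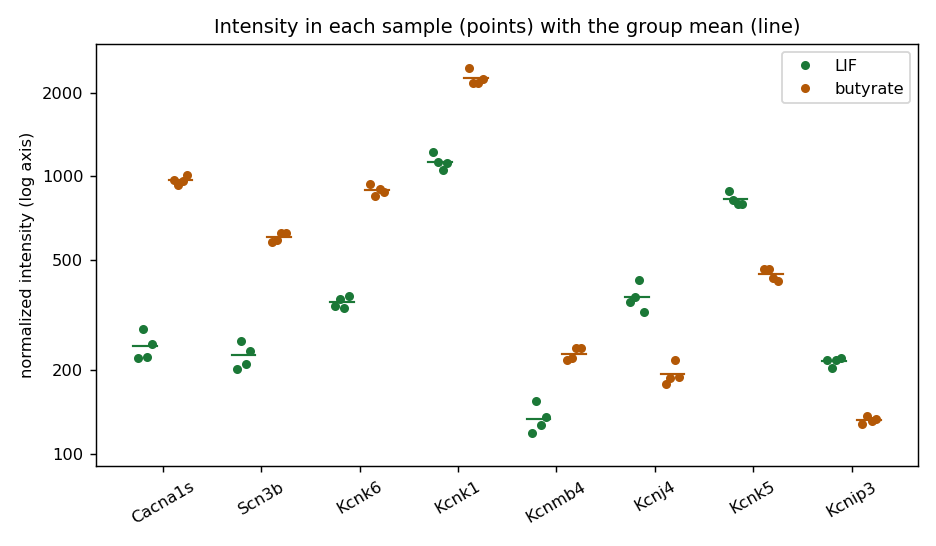
Points are the normalized intensities (log axis, offset of 50 included) of 8 channel genes in LIF samples 1 to 4 (green) and butyrate samples 1 to 4 (orange), and lines are the group means. In none of the 8 genes do the groups overlap: Cacna1s, Scn3b, Kcnk6, Kcnk1 and Kcnmb4 are higher in butyrate, and Kcnj4, Kcnk5 and Kcnip3 are lower.

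Potassium channels of the two-pore-domain family carry the background current that sets the resting potential, and 8 of the 10 genes were tested. Changes in this family ran in both directions: Kcnk6 and Kcnk1, which encode closely related weakly rectifying channels, were higher, and 4 others were lower. Kcnk6 was at 342, 360, 336 and 369 in LIF and 939, 849, 902 and 879 in butyrate. Its groups were far apart, with a log2 ratio of 1.34 ± 0.11, or 2.54-fold (adjusted p = 1.72e-07). Kcnk1 was at 1221, 1128, 1050 and 1113 in LIF and 2460, 2169, 2163 and 2235 in butyrate. All butyrate samples were higher, and the log2 ratio of 1.001 ± 0.041 is 2.001-fold (adjusted p = 1.5e-07), just at the limit used for a 2-fold call. Kcnk1 lies on chromosome 8, where all 764 genes tested had a median ratio of 0.29, and its ratio was not corrected for this.

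Kcnk5, an acid-sensitive background channel of epithelia, went the other way. Its intensities were 888, 820, 797 and 794 in LIF and 461, 461, 429 and 420 in butyrate. Every butyrate sample was lower than every LIF sample. The ratio was -0.90 ± 0.05, or 1.86-fold lower (adjusted p = 2.7e-07), and a dimmer probe gave -0.46 ± 0.13 (adjusted p = 7.54e-05 over probes). With median centring it was -0.32 and no longer passed (adjusted p = 0.0608). Kcnk12 (-0.37 ± 0.12), Kcnk13 (-0.32 ± 0.06) and Kcnk7 (-0.30 ± 0.11) were also lower (adjusted p = 0.000228, 0.000107 and 0.000634), Kcnk13 with a sign that turned to 0.20 with median centring. Kcnk3 (-0.04 ± 0.06) and Kcnk4 (0.07 ± 0.05) did not pass, and Kcnk2 and Kcnk16, the latter a neighbour of Kcnk5 on chromosome 14, were too dim.

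Inward rectifiers pass potassium inwards more easily than outwards and stabilise the resting potential. Of 14 genes 8 were tested, and 3 were lower and 1 higher. Kcnj4, one of the strong rectifiers, was at 353, 368, 422 and 323 in LIF and 179, 188, 218 and 189 in butyrate. The groups did not overlap. The ratio was -0.92 ± 0.10, or 1.89-fold lower (adjusted p = 7.34e-07). A dimmer probe, above background in LIF alone (4 and 0 of 4 arrays), had mean intensities of 93.3 and 78.5. It gave a bound, equal to its measured ratio, of at least 1.19-fold lower in butyrate (adjusted p = 0.00125 over probes). That probe entered the test through LIF alone, so its p-value is no separate support for the fall. Kcnj12, another strong rectifier, was at 203 to 244 in LIF and 161 to 170 in butyrate and had a ratio of -0.40 ± 0.08 (adjusted p = 4.74e-05), which shrank to -0.03 with median centring and no longer passed (adjusted p = 0.764).

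Kcnj3, a pore of the channels opened by G proteins, was slightly higher at 0.17 ± 0.05 (adjusted p = 0.00326), with 129 to 134 in LIF and 143 to 154 in butyrate. Kcnj14 was lower at -0.11 ± 0.06 (adjusted p = 0.0267), with a sign that turned to 0.00026 with median centring. Kcnj8, Kcnj9, Kcnj10 and Kcnj15 did not pass. Kcnj10 and Kcnj15 passed as lower in the scanner software's log ratio (-0.22 and -0.19) and as higher with median centring (both 0.25), so the scaling sets their direction. Kcnj8 passed as lower in the scanner software's log ratio (-0.34, adjusted p = 0.00768), and Kcnj1, Kcnj2, Kcnj5, Kcnj6, Kcnj11 and Kcnj16 were too dim.

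Promoter sequence is shown for Cacna1s, the most raised channel gene, and for Kcnj4 and Kcnk5, both among the 3 most lowered, as the 250 bases before the RefSeq start site (build GRCm38.p6), read 5′ to 3′ on the strand of the gene. Capitals mark GC boxes, GGGCGG or CCGCCC on the printed strand.

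Cacna1s, chr1:136052561-136052810, plus strand: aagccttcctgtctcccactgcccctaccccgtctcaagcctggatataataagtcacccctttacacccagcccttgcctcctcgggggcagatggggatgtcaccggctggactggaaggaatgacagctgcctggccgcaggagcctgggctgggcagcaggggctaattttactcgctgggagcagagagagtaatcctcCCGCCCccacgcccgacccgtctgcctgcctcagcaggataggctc

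Kcnj4, chr15:79505242-79505491, minus strand: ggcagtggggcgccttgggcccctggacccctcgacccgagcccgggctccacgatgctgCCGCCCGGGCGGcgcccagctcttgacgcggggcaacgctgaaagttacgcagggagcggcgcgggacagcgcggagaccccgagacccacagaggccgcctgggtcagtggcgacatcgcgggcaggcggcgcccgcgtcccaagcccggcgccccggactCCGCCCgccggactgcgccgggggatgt

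Kcnk5, chr14:20181783-20182032, minus strand: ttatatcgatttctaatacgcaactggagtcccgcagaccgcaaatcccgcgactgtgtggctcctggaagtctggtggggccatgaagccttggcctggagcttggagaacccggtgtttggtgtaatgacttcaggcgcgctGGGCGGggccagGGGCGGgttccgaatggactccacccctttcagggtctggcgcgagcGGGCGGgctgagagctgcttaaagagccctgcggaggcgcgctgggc

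The Cacna1s window holds 1 GC box and 9 CG dinucleotides, Kcnj4 holds 3 and 35, and Kcnk5 holds 3 and 19. The window of Kcnk1, also at least 2-fold higher but not printed, holds 0 GC boxes and 0 CG dinucleotides, with 44.4% G and C. RefSeq promoters were matched for 90 of the 121 channel genes by symbol, 124 promoters in all, and 43.5% of them held a GC box, beside 32.7% of all 32851 promoters of the same length. The channel promoters were also somewhat richer in G and C, with a median of 58.2% against 52.4%. The STAT consensus TTCNNNGAA, which reads the same on both strands, was found in 8.87% of the channel promoters and 7.02% of all. Of the promoters of channel genes that were higher, 50% held a GC box (6 of 12), and of those that were lower, 48.1% (13 of 27). These are matches of letters and not measured binding.

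Voltage-gated potassium channel pores, which end action potentials and limit excitability, formed the largest family with 36 genes, but 23 of them were too dim to test. Among the 13 tested, 6 were lower and 3 higher. Kcnh2, a channel that repolarises heart muscle, was at 264, 226, 240 and 218 in LIF and 160, 155, 145 and 166 in butyrate, without overlap. It was lower by -0.60 ± 0.16, or 1.51-fold (adjusted p = 4.22e-05), and at -0.22 with median centring it no longer passed (adjusted p = 0.0909). Kcns3, a subunit that forms no channel alone and modifies other voltage-gated pores, was at 208 to 236 in LIF and 176 to 185 in butyrate. Its -0.32 ± 0.10 passed (adjusted p = 0.000283) but turned to 0.07 with median centring. Kcnh8 (-0.25 ± 0.12), Kcnq1 (-0.15 ± 0.07) and Kcnh3 (-0.10) were lower by less. With median centring Kcnh3 no longer passed (-0.19, adjusted p = 0.11), nor did Kcnq1 (-0.22, adjusted p = 0.0604).

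The 3 higher voltage-gated potassium pores were all dim. Kcna1, the delayed rectifier of axons, was at 85.7, 92.2, 93.8 and 93.5 in LIF and 108, 106, 116 and 111 in butyrate, a ratio of 0.28 ± 0.06 (adjusted p = 0.00023), and was above background on 2 LIF and 4 butyrate arrays. Kcna7 gave 0.24 ± 0.10 (adjusted p = 0.0016). Kcng3, a subunit that forms no channel alone, was not above background on any LIF array and on 3 butyrate arrays. As a bound, equal to its measured ratio, it was at least 1.07-fold higher in butyrate (adjusted p = 0.0351), and its sign turned to -0.03 with median centring. Kcng3 entered the test through butyrate alone, the group where it was called higher. Kcnc4, Kcnf1 and Kcnh6 did not pass. Kcnf1 did pass, as at least 2-fold higher, at 1.76 in the scanner software's log ratio (adjusted p = 0.0291) and 1.80 in the authors' value table (adjusted p = 0.0307), and Kcnh6 passed there as lower (-0.14 and -0.16, adjusted p = 0.029 and 0.0187). Kcnf1 was above background on 1 LIF array and 4 butyrate arrays. Too dim were Kcna2 to Kcna6, Kcnb2, Kcnc1, Kcnc2, Kcnd1 to Kcnd3, Kcng4, Kcnh1, Kcnh5, Kcnh7, Kcnq3 to Kcnq5, Kcns1, Kcns2, Kcnv1 and Kcnv2.

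Auxiliary subunits of these potassium pores moved in both directions, 3 higher and 3 lower of 7 tested. Kcnip3, a calcium-binding partner of the Kcnd pores that is also known as a transcriptional repressor, was at 218, 203, 218 and 220 in LIF and 128, 137, 131 and 133 in butyrate. The samples within each group were close together and the groups far apart. Its ratio was -0.70 ± 0.09, or 1.62-fold lower (adjusted p = 2.3e-06), and a dimmer probe gave -0.31 ± 0.10 (adjusted p = 0.000384 over probes). The related Kcnip2 was lower at -0.44 ± 0.17 (adjusted p = 0.00026), with 100.3 to 117 in LIF and 76.9 to 86.5 in butyrate, where it was above background on 2 arrays. Kcnab3, a beta subunit related to oxidoreductases, was higher at 0.36 ± 0.12 (adjusted p = 0.000307), and Kcnab2 of the same kind was lower at -0.28 ± 0.07 (adjusted p = 0.000301). Kcne1l and Kcne1, single-pass subunits of the Kcnq1 type of channel, were higher at 0.27 ± 0.10 and 0.11, and Kcne1 no longer passed with median centring (0.15, adjusted p = 0.153). Kcne1l was above background on 1 LIF and 4 butyrate arrays. It thus entered the test through butyrate alone, the group where it was called higher. Kcne3 did not pass (0.07).

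Calcium-activated potassium channels couple potassium exit to calcium entry. Kcnmb4, an auxiliary subunit that slows the large-conductance channel, was at 119, 154, 127 and 135 in LIF and 217, 222, 239 and 239 in butyrate. The groups did not overlap, and Kcnmb4 was higher by 0.78 ± 0.18, or 1.72-fold (adjusted p = 1.26e-05). Kcnmb2, an auxiliary subunit that inactivates the same channel, was lower at -0.20 ± 0.07 (adjusted p = 0.0019) and no longer passed with median centring (-0.07, adjusted p = 0.478). The pore itself, Kcnma1, was too dim to test, as was Kcnmb1.

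The smaller-conductance pores changed little. Kcnn2 was lower by -0.19 ± 0.08 (adjusted p = 0.00369), but its sign turned to 0.27 with median centring. Kcnn4 was lower by -0.12 ± 0.07 (adjusted p = 0.0226), and turned to 0.12. Kcnn1 overlapped between groups at 0.12 ± 0.07 (adjusted p = 0.0217), and no longer passed in the scanner software's log ratio (0.018, adjusted p = 0.748) or the authors' value table (0.0090, adjusted p = 0.878). Of the smaller-conductance pores, Kcnn3 was too dim. Kcnt1, Kcnt2 and Kcnu1, listed in the same family of calcium- or sodium-activated pores but not of this smaller kind, did not pass.

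**Figure D4:**
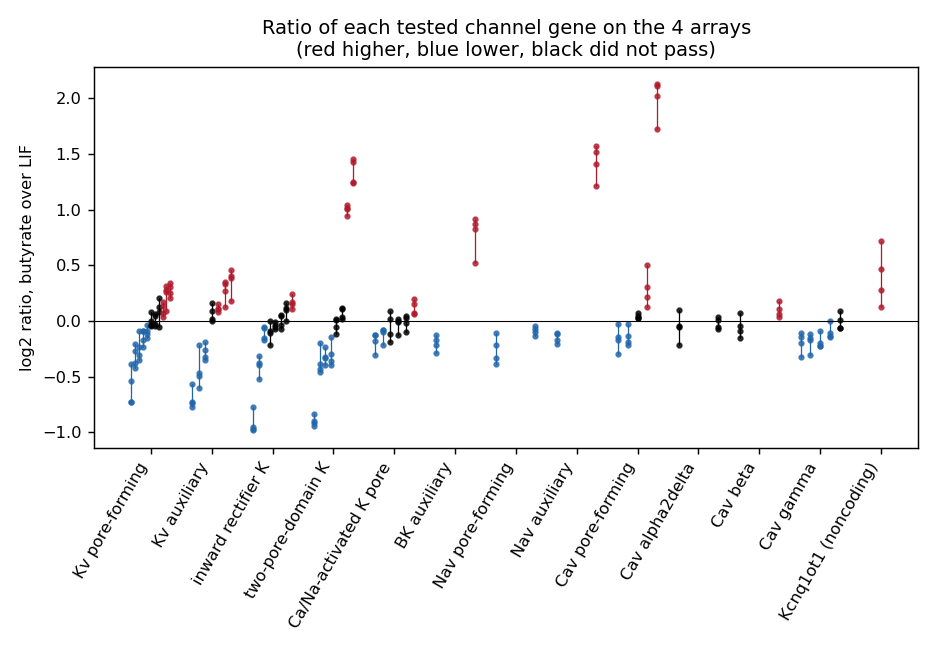
Each vertical line is 1 of 61 tested channel genes, its 4 points being the log2 ratio of butyrate over LIF (vertical axis) on the 4 arrays, grouped by family along the horizontal axis and coloured by call. Points of 1 gene lie close together compared with the distance from 0 for Cacna1s, Scn3b, Kcnk6, Kcnk1 and Kcnk5, while most other genes lie within 0.5 of 0.

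Kcnq1ot1, the long noncoding RNA transcribed antisense to Kcnq1 from the paternal chromosome, silences imprinted genes around it. It was at 155, 166, 179 and 202 in LIF and 254, 230, 217 and 220 in butyrate. The groups did not overlap, but the ratios on single arrays ran from 0.13 to 0.72. The mean was 0.40 ± 0.25 (adjusted p = 0.00325). Kcnq1 itself was at -0.15 ± 0.07 (adjusted p = 0.00834) on its brightest probe and no longer passed with median centring. Its other probe, above background on no LIF array and on 3 butyrate arrays, did not pass (adjusted p = 0.0673 over probes). Of 12 genes listed around Kcnq1ot1, itself and Kcnq1 included, 7 were higher and 4 lower (8 and 1 with median centring). Over all genes tested, 41.7% were higher and 33.3% lower. In the list, Osbpl5 was highest at 2.02 ± 0.08, with Cdkn1c at 0.90 ± 0.11 and Cars lowest at -0.76 ± 0.05. The strand read by the Kcnq1ot1 probe is not given in these sources.

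Genes with a second probe allowed a check of the channel ratios within the same arrays. In 21 genes 2 probes were tested, and the ratios had the same sign in 18. Both probes passed in 7 genes, all with the same sign, and in no gene did both pass with opposite signs. In 7 genes the brighter probe alone passed and in 2 (Cacna1b and Cacna2d2) the other alone, beside 72.2% of all probes that passed when tested singly. In 7 of the 21 genes the other probe was not above background on any array of 1 group, so its ratio is only a bound. Over the remaining 14 genes the sign was the same in 12, both probes passed in 4 with the same sign, and the other probe gave the smaller ratio in 9.

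**Figure D5:**
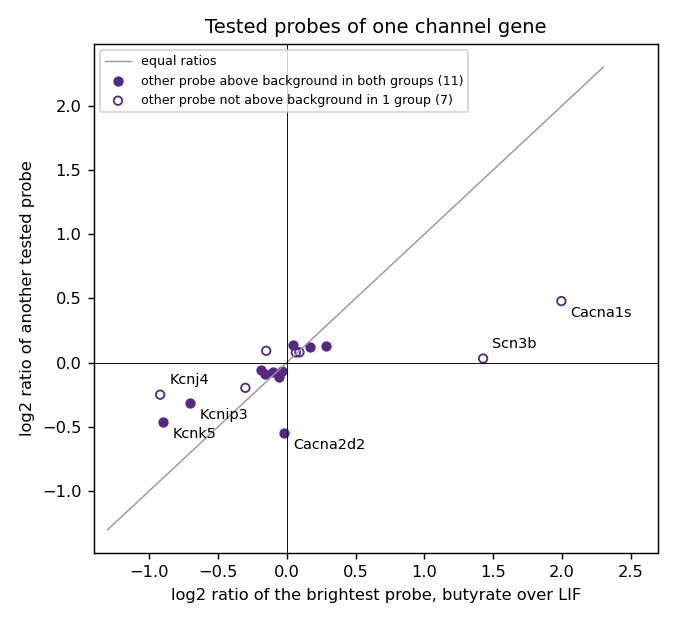
Each point is 1 of 18 channel genes with 2 tested probes, placed by the log2 ratio of its brightest probe (horizontal) and of its other probe (vertical), with the grey line where they would be equal. Open points (7 genes, Cacna1s, Scn3b and Kcnj4 among them) have another probe not above background in 1 group, so their vertical position is the measured ratio and only a bound. Among the 11 filled points, Kcnk5 and Kcnip3 are below 0 on both axes (-0.46 and -0.31 on the vertical one), and Cacna2d2 is at -0.55 on the vertical axis.

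Chromosomes 8, 11 and 19 were set apart without a stated rule, so their higher ratios are given as a description and not as a result. The median ratio was 0.22 over 2523 other genes there (1578 higher, 418 lower). It was -0.01 over 11396 on the other autosomes (4270 higher, 4394 lower). The 14 tested channel genes on those chromosomes had a median of -0.03 (4 higher, 5 lower) and the 51 elsewhere -0.04 (14 higher, 23 lower). Of the 5 genes at least 2-fold higher, Kcnk1 alone is on 1 of these chromosomes.

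Other ion transport genes outside the naming rule were listed to set the channels in context. Over all genes tested, 41.7% were higher and 33.3% lower, and the counts below are to be read beside those shares. Of 24 tested calcium entry and release channels of other kinds, 12 were higher and 6 lower, with a median ratio of 0.11. The largest changes were in Trpv2 (1.07 ± 0.11) and Trpc2 (0.86 ± 0.20), both calcium-permeable channels of the Trp family. Chloride channels gave 12 higher and 3 lower of 17 (median 0.29), led by Clcn5 (1.59 ± 0.11), an endosomal chloride transporter, and Clic6 (1.23 ± 0.12). Ion pumps and exchangers gave 10 higher and 7 lower of 24 (median 0.07), with Atp2c2, a calcium pump of the secretory pathway, at 1.31 ± 0.21 and Fxyd4, a regulator of the sodium pump, at -1.11 ± 0.30. Further lists were smaller: 2 higher and 3 lower of 6 HCN, CNG and sodium leak channels (Cnga3 -0.27, Cngb1 -0.25), 0 higher and 1 lower of 3 epithelial and acid-sensing sodium channels (Asic1 -0.29), and 1 higher and 2 lower of 4 genes listed as partners of potassium channels. With arrays centred on the median, the calcium, chloride and pump lists gave 14, 11 and 16 higher and 0, 0 and 2 lower, and no gene of the smaller lists was lower. With the scanner software's log ratio the pumps gave 8 higher and 10 lower, and the HCN, CNG and sodium leak list 0 higher and 3 lower. In the list of partners, Abcc8, the sulphonylurea receptor of ATP-sensitive potassium channels, was higher at 0.74 ± 0.13, and Ptp4a3 lower at -0.60 ± 0.07. A role of Ptp4a3 at potassium channels was not tested here.

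REST is a repressor that keeps many neuronal genes, channels included, silent outside the nervous system. Rest was lower in butyrate at -0.74 ± 0.20 (adjusted p = 3.04e-05) and its corepressor Ehmt2 at -0.82 ± 0.01 (adjusted p = 2.74e-07). In the list of 9, 5 were lower and 2 higher with a median of -0.43, where 33.3% of all genes were lower and 41.7% higher. With median centring, however, 0 were lower and 3 higher (median 0.15). Any link between these genes and the channels was not tested.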

How the data were processed

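RNA of 4 LIF and 4 butyrate samples was read on 4 Agilent arrays with 2 colours, all on 1 slide, so no batch could be tested. Per the submitters' processing notes, Agilent Feature Extraction 9.1 read the scans. For each spot the deposited scanner files hold the intensity of both channels, a log10 ratio (background-subtracted and dye-normalized, per the file headers) and detection flags. The authors' value table holds log2 values of the same arrays, whose columns share a median of 6.487 and correlate with the scanner's processed signal of their own channel at 0.9996 or more.

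Mean signals were corrected for median background (normexp, offset 50) and normalized by loess within arrays in limma 3.58.1 (R 4.3.3). Of 43379 non-control spots per array, 211 were of channel genes. Over the arrays 14 outlier spots were left out. Probes well above background on at least 3 arrays in either channel were tested (25661 of 41174, 86 of them channel probes), and a gene is its brightest tested probe. Intensities shown by sample were also scaled between arrays (Aquantile). Probe names were updated through RefSeq (GRCm38.p6) by accession (22951), symbol (6659) or synonym (3109), and 8455 kept the name in the file. The log2 ratios of the 4 arrays were tested against 0 with lmFit and eBayes, adjusted over 17190 genes. The ratio pairs the 2 samples of an array. As a check, deviations from the group means of samples with the same number correlated across genes at 0.298, 0.158, 0.306 and 0.226, and those of other numbers at -0.214 to 0.101. The labels call the 4 samples of a group independent without saying of what, so the p-values cover the spread between these samples only, and it may be technical. Arrays give no read depth, and their number limits the precision.

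Named by rule were channel genes at least 2-fold changed, up to 3 largest changes and the brightest probe per family, Kcnq1ot1 and up to 2 genes per related list. Other genes are named to account for members and markers, after their values were seen. Values of some channel genes are not reported here, though the counts include them. Members and lists were chosen with earlier results of these data known. Bounds set the mean of the brighter group against the higher of the probe's own signal and the lowest signal above background in the other, and are open to dye bias. In each probe given a bound its own signal was the higher, so the bound equals the measured ratio. Alternatives were no background correction, an offset of 16, the scanner's log ratio, median centring without loess, Aquantile, other filters, combining probes otherwise, a trended robust variance, no or a random replicate block, the authors' value table, and leaving out each replicate. Scripts were tested on simulated data. Figures used matplotlib 3.10.9 (Python 3.11.15).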

Additional observations from a re-analysis of the deposited data

Results flagged for a closer look

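Among 30 named channel genes, the ratios of the 4 arrays were searched for an array far from the rest, and 1 gene had one. In Kcnj4 the ratio of array 4 was -0.77, while the others lay at -0.98 to -0.95, a gap of 0.872 of the whole range. Kcnj4 kept its direction and passed without that array. A small share of groups of 4 is picked out in this way by chance.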

How the results depend on the processing

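The counts of channel genes at least 2-fold changed depended most on the processing. At least 2-fold lower were 0 genes, but 2 without background correction or with an offset of 16 (Kcnj4 among them) and 12 with the scanner's log ratio or the authors' value table. At least 2-fold higher were 5 genes, but 8 with those last 2 sources and 3 with the mean of a gene's probes (Cacna1s, Kcnk6 and Kcnk1). Over all genes 1192 were at least 2-fold changed, against 2987 with the scanner's log ratio, 2973 with the authors' value table and 2851 with median centring.

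Median centring without loess moved the median of all genes from 0.03 to 0.41, and that of channel genes from -0.04 to 0.07. The share of higher genes among the channel genes that passed went from 39.1% to 72.7%, and among all genes that passed from 55.7% to 92.4%. Channel genes lower numbered 9 in place of 28. Of the 28, 9 remained lower, 11 kept the sign without passing and 8 turned, while 16 of the 18 higher genes remained higher. Turned values of named genes were 0.072 for Kcns3, 0.27 for Kcnn2, 0.12 for Kcnn4, 0.24 for Scn4a, 0.068 for Scn2b, 0.55 for Cacna2d2 and 0.26 for Cacng7. Cacnb3 turned to -0.013 in the scanner's log ratio and -0.016 in the authors' value table. The cause was not tested. Of 626 values of named genes under the alternatives, 575 kept direction and call, 41 lost the call, 1 gained it and 9 turned. Several alternatives left the ratios of these genes unchanged and could move the adjusted p alone. Aquantile, the trended robust variance and leaving out the replicate block are among them. No sign could turn there, so the 575 overstates how far the ratios were tried.

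The replicate pairing mattered little for the counts: without the replicate block 40 channel genes passed, and with a random block 43, in place of 46. Leaving out 1 replicate at a time gave 38 to 44 channel genes that passed, 4 to 5 at least 2-fold higher (Kcnk1 fell below 2-fold without replicate 1, 3 or 4) and 0 to 1 at least 2-fold lower (1 without replicate 2). Small changes lost their call without 1 replicate: Scn4a without any of the 4 (-0.10 to -0.07), Cacng7 without replicate 1, 2 or 3 (-0.09 to -0.08), Cacnb3 without 2, 3 or 4 (0.07 to 0.11), Kcnn1 without 3 or 4 (0.09 to 0.11), Kcnn4 without 1 or 3 (-0.12 to -0.09) and Cacna1a without 1 (-0.12). Brightness limits these results: 53 of the 65 tested channel genes lay among the dimmest genes.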
